A study of Rattus norvegicus with 39 samples.

Results

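The nuclear genes for subunits of the mitochondrial respiratory chain were followed in laser-captured bile duct and hepatocytes of rat liver. A gene was included when a probe set carried that gene's symbol alone and the symbol began with Nduf, Uqcr, Cox4 to Cox8 or Atp5, or was Sdha, Sdhb, Sdhc or Sdhd. Such probe sets numbered 89 of the 15866 tested, and 1 probe set per gene, the brightest over all arrays, left 84 genes. These were 34 genes of complex I subunits, 5 genes of complex I assembly factors (Ndufaf3, Ndufaf4, Ndufaf5, Ndufaf7 and Ndufaf8), 4 of complex II, 7 of complex III, 18 of complex IV and 16 of complex V. The complex IV set held Ndufa4, its paralogue Ndufa4l2 and the pseudogene Cox6c-ps1. No measured level was used to include or leave out a gene, and 7 probe sets annotated to several genes were left out.

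The animals were Sprague Dawley rats aged 8 weeks. Each received ANIT (alpha-naphthyl isothiocyanate, which injures the cells lining bile ducts) at 50 mg/kg, prepared with corn oil, or the oil without it at 10 ml/kg as the vehicle. Livers were taken 2 or 6 h later, and bile duct or hepatocytes were cut from sections by laser. The 8 groups, each a captured region, a treatment and a time, held 39 arrays: 5 in each group except vehicle bile duct at 6 h, which held 4. The labels call the arrays of a group biological replicates and leave unsaid if both regions were captured from the same rat.

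Complexes I, III and IV pass electrons from NADH to oxygen and pump protons across the inner mitochondrial membrane, complex II feeds in electrons from succinate, and complex V (ATP synthase) uses the proton gradient to make ATP. Hepatocytes are rich in mitochondria and depend on this chain for urea synthesis, gluconeogenesis and detoxification, while cholangiocytes line the bile ducts and modify bile. The genes studied here are encoded in the nucleus, and several complex IV subunits exist as tissue-specific isoforms.

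The captured regions carried the markers of their labels. The mean log2 intensity of 18 hepatocyte markers was 10.35 to 10.72 on the 20 hepatocyte arrays and 4 to 9.09 on the 19 bile duct arrays, and that of 16 cholangiocyte markers was 4.41 to 4.82 and 7.39 to 8.94. Replicates 1 and 3 of vehicle bile duct at 6 h had hepatocyte marker means of 8.03 and 9.09, so this group of 4 holds 2 arrays with much hepatocyte RNA. Next were replicate 4 of ANIT bile duct at 6 h (7.93) and replicate 3 at 2 h (7.52). The former was kept where the 2 vehicle arrays were left out. The standard deviation (SD) of log2 intensity over the probe sets of an array was 2.22 to 2.37 in hepatocytes and 1.68 to 2.18 in bile duct, lowest in vehicle bile duct at 6 h (1.68 to 1.88) and in replicates 2 and 4 of ANIT bile duct at 2 h (1.76 and 1.88). Array means were near each other, 4.42 to 4.54. The median SD of the 84 genes between arrays of a group was 0.13 to 0.16 in the hepatocyte groups. It was 0.27 in vehicle and 0.45 in ANIT bile duct at 2 h, and 0.48 in vehicle and 0.3 in ANIT bile duct at 6 h.

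Stretches of 250 bases before the annotated transcription start are shown for 5 genes on which the results turn. Ndufc1 and Sdhd had the greatest deficits in bile duct, averaged over the 4 comparisons with hepatocytes (-3.14 and -2.83 in log2), and Cox6b2 was higher there. Ndufaf5 and Cox5a had the smallest p for ANIT in bile duct at 6 h. The sequences are from RefSeq, build GRCr8, 5′ to 3′ on the gene's strand. They lie at chr2:137601736-137601985 (minus strand, Ndufc1), chr8:59850642-59850891 (minus strand, Sdhd), chr1:78122621-78122870 (plus strand, Cox6b2), chr3:147961362-147961611 (plus strand, Ndufaf5) and chr8:66818034-66818283 (plus strand, Cox5a). Capitals mark a match to the core motif of NRF1 (CGCATGCG, its own reverse complement), of the ETS family (CCGGAAG) or of YY1 (AAGATGGC), regulators known from mammalian respiratory chain promoters.
Ndufc1: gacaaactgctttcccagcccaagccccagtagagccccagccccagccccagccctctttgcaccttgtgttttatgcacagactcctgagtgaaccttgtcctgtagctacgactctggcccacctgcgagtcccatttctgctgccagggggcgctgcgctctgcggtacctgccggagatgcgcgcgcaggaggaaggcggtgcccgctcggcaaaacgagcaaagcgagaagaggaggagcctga
Sdhd: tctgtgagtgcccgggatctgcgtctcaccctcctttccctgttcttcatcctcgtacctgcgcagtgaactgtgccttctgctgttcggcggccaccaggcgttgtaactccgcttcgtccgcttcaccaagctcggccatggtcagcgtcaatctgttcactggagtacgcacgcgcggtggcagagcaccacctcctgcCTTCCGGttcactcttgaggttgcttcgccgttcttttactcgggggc
Cox6b2: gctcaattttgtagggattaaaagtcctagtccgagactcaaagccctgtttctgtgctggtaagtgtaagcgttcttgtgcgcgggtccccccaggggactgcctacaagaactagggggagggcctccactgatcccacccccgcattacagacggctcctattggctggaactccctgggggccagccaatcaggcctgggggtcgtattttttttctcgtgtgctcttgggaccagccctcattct
Ndufaf5: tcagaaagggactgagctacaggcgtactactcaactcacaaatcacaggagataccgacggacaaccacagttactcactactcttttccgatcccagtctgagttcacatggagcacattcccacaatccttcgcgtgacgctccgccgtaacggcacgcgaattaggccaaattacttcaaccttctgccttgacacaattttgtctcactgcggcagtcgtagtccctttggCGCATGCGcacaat
Cox5a: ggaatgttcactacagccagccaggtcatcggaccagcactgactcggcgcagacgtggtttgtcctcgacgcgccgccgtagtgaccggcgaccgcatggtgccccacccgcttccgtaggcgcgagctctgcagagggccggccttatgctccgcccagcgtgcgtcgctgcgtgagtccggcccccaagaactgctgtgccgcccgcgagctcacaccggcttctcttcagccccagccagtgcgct

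The capitals in Sdhd are the ETS letters on the opposite strand, and those in Ndufaf5 are the NRF1 letters. The stretches of Ndufc1, Cox6b2 and Cox5a hold none of the 3 motifs. Over 300-base windows (250 bases before and 50 after the start, both strands searched), 76 of the 84 genes had a promoter in the table, and 35 of them (46.1%) held at least 1 of the motifs, against 4215 of all 33469 windows (12.6%). The NRF1 letters were in 8 of the 76 windows (10.5%, all windows 1.66%), the ETS letters in 21 (27.6%, all windows 8.75%) and the YY1 letters in 17 (22.4%, all windows 3.17%). Atp5me and Atp5pf, both of complex V, held all 3. A motif was found in 14 of 32 windows of complex I, 3 of 4 of complex II, 4 of 6 of complex III, 4 of 14 of complex IV and 7 of 15 of complex V. The 76 windows were the first listed for each gene, whereas the 33469 took every window, so a gene could enter more than once. A match of letters is a description and shows no binding.

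Respiratory chain transcripts were lower in bile duct than in hepatocytes in vehicle rats and in ANIT rats, at 2 h and at 6 h. The mean log2 intensity of the 84 genes was 7.64 to 8.15 on hepatocyte arrays and 6.06 to 7.15 on bile duct arrays, with no overlap. In vehicle rats at 2 h, 68 of the 84 genes were lower in bile duct and 3 were higher at an adjusted p under 0.05 (limma, Benjamini-Hochberg over 15866 probe sets, two-sided). Over all probe sets, 23.5% were lower and 28.7% higher. The median log2 difference, bile duct minus hepatocyte, was -1.02 over the 84 genes and 0.16 over all probe sets. Captured tissue can hold more than 1 cell type, and fewer cells of a type and less RNA per cell cannot be told apart in it.

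In vehicle rats at 6 h, 70 genes were lower and 5 higher (all probe sets 24.4% and 29.3%), with a median of -1.33. With ANIT at 2 h, 71 were lower and 4 higher (all probe sets 23.6% and 30.9%), with a median of -1.48. With ANIT at 6 h, 69 were lower and 1 higher (all probe sets 21.7% and 25.8%), with a median of -1.17. Bright probe sets were lower in bile duct more often than probe sets overall. Among the 1915 probe sets with a mean log2 intensity of at least 7, 42.1% were lower in vehicle rats at 2 h and 50.7% at 6 h, whereas 51 and 52 of the 56 respiratory chain genes that bright were.

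Across the 4 comparisons, which rest on separate arrays, 63 genes were lower in every one. They were 28 of 34 genes of complex I, 2 of 5 assembly factors, 4 of 4 of complex II, 7 of 7 of complex III, 10 of 18 of complex IV and 12 of 16 of complex V. For 47 of the 84 genes each of the 19 bile duct arrays lay below each of the 20 hepatocyte arrays, as it did for 8.96% of all probe sets. For 0 of the 84 did each bile duct array lie above, against 3.86% of all probe sets. The deficit was deepest for complex II, with medians of -1.84 and -2.04 in vehicle rats at 2 and 6 h and -2.57 and -1.92 with ANIT. Among the complexes it was shallowest for complex IV in vehicle rats, at a median of -0.57 (2 h) and -0.85 (6 h). That set holds 7 genes lower in none of the 4 comparisons: Cox4i2, Cox6a2, Cox6b2, Cox6c-ps1, Cox7a1, Cox8b and Ndufa4l2. They are dim, with means of 2.32 to 4.34 over all arrays, and their part in the shallow median was not tested. The 10 complex IV genes lower in every comparison had mean differences of -0.91 to -1.62. Whether complexes differed from each other was not tested.

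**Figure D1:**
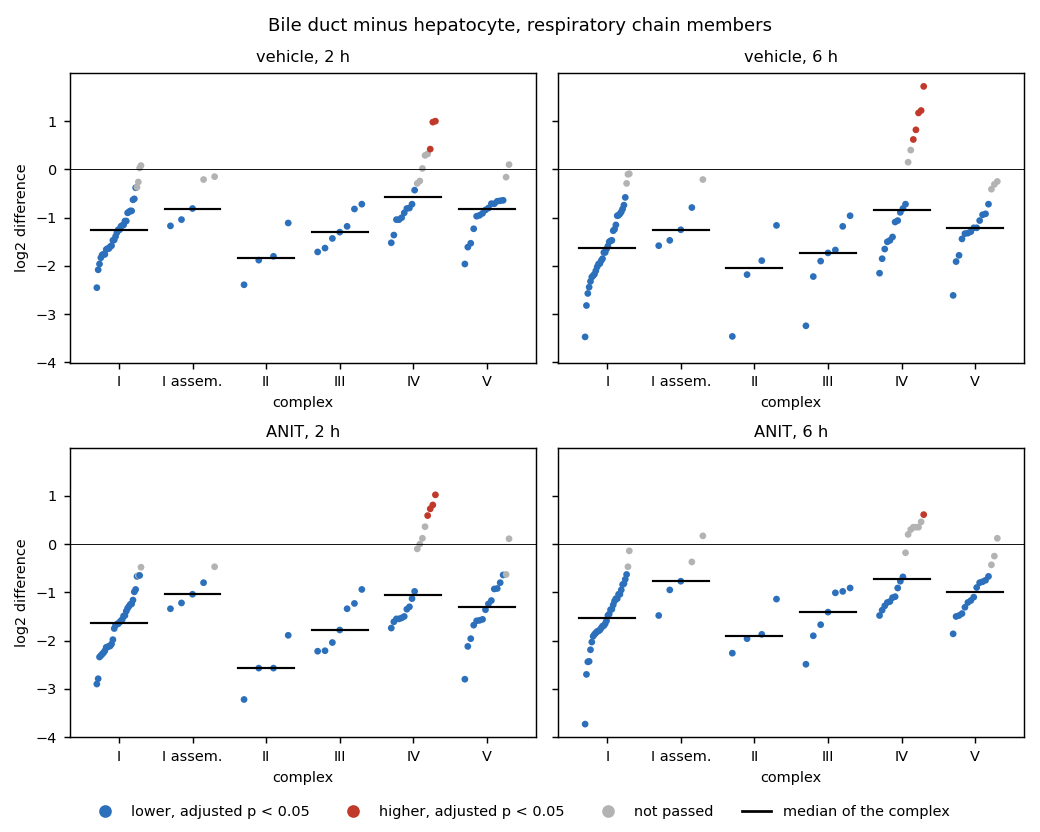
Log2 difference, bile duct minus hepatocyte, of each of the 84 genes (1 point per gene) by complex in the 4 comparisons of regions, with the median of each complex as a bar and "I assem." for complex I assembly factors. Blue points are lower and red points higher at an adjusted p under 0.05, and the red points are all in complex IV.

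Among complex I genes, Ndufc1, an accessory subunit of the membrane arm, had the greatest deficit. In vehicle rats at 2 h it read 5.61, 5.48, 6.41, 6.21 and 6.32 on the bile duct arrays and 8.35, 8.53, 8.46, 8.51 and 8.41 on the hepatocyte arrays. With ANIT at 2 h the bile duct arrays read 6, 5.02, 5.94, 4.87 and 6.28, and the hepatocyte arrays 8.52, 8.51, 8.54, 8.44 and 8.59. The regions stood well apart, and the hepatocyte arrays differed by little among themselves. At 6 h, vehicle bile duct read 4.57, 5.28, 5.37 and 4.7 and vehicle hepatocytes 8.27, 8.37, 8.57, 8.44 and 8.59. The ANIT arrays at 6 h read 4.79, 5.01, 5.34, 4.75 and 3.83 in bile duct and 8.32, 8.56, 8.43, 8.57 and 8.5 in hepatocytes. Ndufc1 was thus lower by 5.45-fold, 11.1-fold, 7.45-fold and 13.3-fold in vehicle 2 h, vehicle 6 h, ANIT 2 h and ANIT 6 h (log2 -2.45 ± 0.19, -3.47 ± 0.23, -2.9 ± 0.26 and -3.73 ± 0.24, mean ± limma standard error). Its adjusted p was 1.05e-07, 2.03e-07, 7.54e-07 and 1.51e-08 in the same order (limma). Ndufs1, which carries iron-sulfur clusters in the NADH-oxidising arm, was lower by 3.17-fold in vehicle rats at 2 h and 5.93-fold at 6 h. By contrast Ndufc2, another membrane arm subunit, passed in none of the 4, with differences between -0.48 and 0.03. Among the assembly factors, Ndufaf8 led in vehicle rats (-1.17 at 2 h and -1.58 ± 0.25 at 6 h), and Ndufaf3 with ANIT (-1.34 at 2 h and -1.48 at 6 h).

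The 4 subunits of complex II, which is also the succinate dehydrogenase of the citric acid cycle, were lower in each comparison. Sdhd, a membrane anchor, read 6.14, 6.91, 6.35, 6.7 and 6.35 in vehicle bile duct at 2 h and 9.01, 8.67, 9.09, 8.92 and 8.72 in vehicle hepatocytes. At 6 h, vehicle bile duct read 4.97, 4.08, 5.43 and 5.27 and vehicle hepatocytes 8.32, 8.41, 8.24, 8.51 and 8.51. Sdhd was therefore far lower in bile duct at both times, without overlap. With ANIT it read 5.5, 5.36, 6.46, 4.84 and 6.12 in bile duct and 8.68, 8.84, 9.08, 9 and 8.77 in hepatocytes at 2 h. At 6 h with ANIT it read 6.46, 5.22, 6.58, 5.97 and 5.99 in bile duct and 7.98, 8.45, 8.5, 8.22 and 8.35 in hepatocytes. The difference was -2.39 ± 0.17 in vehicle 2 h, -3.46 ± 0.27 in vehicle 6 h, -3.22 ± 0.27 in ANIT 2 h and -2.26 ± 0.24 in ANIT 6 h, with limma adjusted p of 4.04e-08, 6.36e-07, 3.52e-07 and 2.75e-06. A second, dimmer Sdhd probe set gave -1.95 in vehicle rats at 2 h (limma adjusted p 1.13e-07) and -2.22 at 6 h (0.00024). Sdha, the catalytic flavoprotein, was lower by 3.48-fold in vehicle rats at 2 h, and Sdhb, the iron-sulfur subunit, by 3.67-fold. The other anchor, Sdhc, was lower by 2.16-fold.

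The 7 complex III genes were lower in each of the 4 comparisons. The lead was taken by Uqcrq in vehicle rats at 2 h (-1.71 ± 0.16, 3.28-fold), and by Uqcr11 in vehicle rats at 6 h (-3.24 ± 0.54, 9.47-fold), both small accessory subunits. Uqcrfs1, the Rieske iron-sulfur protein, led with ANIT at 2 h (-2.22 ± 0.32, 4.65-fold), and Uqcr11 with ANIT at 6 h (-2.49 ± 0.31, 5.6-fold). In complex V, Atp5mg, the g subunit of the membrane part, led in all 4 comparisons. It was lower by 3.89-fold, 6.11-fold, 6.96-fold and 3.64-fold in vehicle 2 h, vehicle 6 h, ANIT 2 h and ANIT 6 h. Atp5f1b, the catalytic beta subunit, differed by less: it was lower by 1.93-fold, 2.51-fold, 2.36-fold and 2.31-fold, without overlap between regions in any comparison. Atp5mc3, a gene for the proton-carrying c ring, was lower by 1.63-fold to 2.08-fold.

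Atp5if1, the inhibitor of ATP hydrolysis by complex V, passed in none of the 4 comparisons (-0.25 to 0.12). Its probe sets disagreed: in vehicle rats at 2 h another read 0.92 higher in bile duct (limma adjusted p 0.000379), and the dimmest read lower, at -1.38 (3.56e-05). Ndufv3 also had probe sets that differed in vehicle rats at 2 h, at -1.76 for the one used and -0.21 for the other (limma adjusted p 1.39e-07 and 0.486). That other probe set passed as lower in vehicle 6 h, ANIT 2 h and ANIT 6 h, at -0.69, -0.65 and -0.78 (limma adjusted p 0.0312, 0.0187 and 0.00719).

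Complex IV held the exceptions. Cox4i1, the common isoform of subunit 4, was lower in bile duct in each comparison, by 2.06-fold, 2.82-fold, 2.93-fold and 2.32-fold in vehicle 2 h, vehicle 6 h, ANIT 2 h and ANIT 6 h. Cox4i2, the isoform known from lung and for regulation by oxygen, was higher in bile duct in 3 of the 4. In vehicle rats at 2 h Cox4i2 read 3.49, 4.24, 3.4, 2.44 and 4.03 in bile duct and 2.65, 2.54, 2.31, 2.48 and 2.62 in hepatocytes, so that 1 bile duct array lay among the hepatocyte arrays. At 6 h it read 3.18, 5.15, 2.8 and 3.4 in vehicle bile duct and 2.56, 2.05, 2.33, 3.11 and 2.27 in vehicle hepatocytes. Those ranges overlap as well. With ANIT at 2 h the bile duct arrays read 3.87, 4.23, 2.97, 3.07 and 2.99, each above the hepatocyte arrays at 2.32, 2.56, 2.48, 2.35 and 2.33. With ANIT at 6 h they read 3.42, 2.76, 2.89, 3.36 and 2.58 against 2.9, 2.15, 2.41, 2.71 and 2.55. The differences were 1 ± 0.27 (adjusted p 0.00732), 1.17 ± 0.41 (0.0293), 1.02 ± 0.25 (0.00409) and 0.46 ± 0.22 (0.095) in vehicle 2 h, vehicle 6 h, ANIT 2 h and ANIT 6 h (limma). These levels are dim, and the median over all probe sets, dim and bright, was 0.16 to 0.25 above 0.

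Cox6b2, the isoform of subunit 6B known from testis, was the 1 gene higher in all 4 comparisons. It read 5.46, 6, 5.57, 3.98 and 5.22 in vehicle bile duct at 2 h and 4.08, 4.15, 4.48, 4.05 and 4.59 in vehicle hepatocytes. At 6 h it read 4.98, 4.12, 4.85 and 4.24 in vehicle bile duct and 4, 3.7, 3.88, 4.19 and 3.85 in vehicle hepatocytes. In both, some arrays of the regions overlapped. With ANIT it read 5.35, 4.73, 4.25, 5.27 and 4.76 in bile duct and 4.17, 4.06, 3.77, 4.03 and 4.27 in hepatocytes at 2 h. At 6 h with ANIT the bile duct arrays, at 4.15, 4.47, 4.35, 4.1 and 3.99, lay above the hepatocyte arrays, at 3.85, 3.75, 3.49, 3.63 and 3.31. The differences were 0.98 ± 0.3, 0.62 ± 0.24, 0.81 ± 0.22 and 0.61 ± 0.18, with limma adjusted p of 0.0147, 0.0413, 0.00754 and 0.0115. Without the 2 vehicle bile duct arrays of high hepatocyte marker level, Cox6b2 at 6 h was 0.26 (limma adjusted p 0.308). Cox6b1, the common isoform, was lower in each comparison, by 1.64-fold to 2.55-fold.

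Of the remaining isoform pairs, Cox6a1, the form known from liver, was lower by 2.56-fold in vehicle rats at 2 h and 4.44-fold at 6 h. Its muscle counterpart Cox6a2 was near 3 in both regions and passed once, higher in vehicle bile duct at 6 h (0.82 ± 0.21, limma adjusted p 0.00595). Cox8a, which led complex IV in vehicle rats at 2 h, was lower by 2.43-fold to 3.05-fold, and Cox7c led with ANIT at 2 h (-1.74 ± 0.4), while the muscle forms Cox7a1 and Cox8b, at 1.96 to 2.94 on average in every group, passed in none. Ndufa4, a complex IV subunit despite its name, was lower in each comparison (-0.43 to -1.55), although at 0.02 in vehicle rats at 2 h after renewed quantile normalization. Its paralogue Ndufa4l2, known for induction by low oxygen, was higher in vehicle rats at 6 h (1.22 ± 0.23) and with ANIT at 2 h (0.59 ± 0.2). Cox6c-ps1, a pseudogene, was higher in the same comparisons (1.72 ± 0.3 and 0.73 ± 0.2). Cox7a2l, which helps join complexes III and IV, was higher in vehicle bile duct at 2 h (0.42 ± 0.12) and lower at 6 h (-0.72 ± 0.24, but 0.09 after renewed quantile normalization).

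Bile duct arrays had the smaller spread over probe sets, and scaling that equalises the spread made the median differences smaller. When the arrays were quantile normalized again, the median over all probe sets fell to 0.04, 0.09, 0.08 and 0.09 in vehicle 2 h, vehicle 6 h, ANIT 2 h and ANIT 6 h, from 0.16, 0.23, 0.25 and 0.21. The respiratory chain genes then had medians of -0.67, -0.7, -0.93 and -0.82, and 58, 42, 62 and 63 of them were lower, against 22.6%, 17.1%, 20.8% and 19% of all probe sets. The rises of Cox4i2 and Cox6b2 in vehicle rats at 6 h no longer passed (0.8 with a limma adjusted p of 0.266, and 0.63 with 0.0943), nor did that of Cox4i2 with ANIT at 2 h (0.68 with 0.0696). The rises of Cox6a2 in vehicle rats at 6 h (0.32, limma adjusted p 0.265) and of Ndufa4l2 (0.2, 0.47) and Cox6c-ps1 (0.31, 0.187) with ANIT at 2 h were lost as well. The falls lost included those of Sdhc (-0.46), Atp5mc3 (-0.46), Uqcrc2 (-0.94) and Cox6b1 (-0.09) in vehicle rats at 6 h, and of Atp5mc3 (-0.42) and Ndufa4 (-0.94) with ANIT at 2 h. Cox6b1 lost its call also in vehicle rats at 2 h (-0.27) and with ANIT at 6 h (-0.38), and the complex III genes Uqcrc1 and Uqcrh in vehicle rats at 2 h (-0.37 and -0.27).

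**Figure D2:**
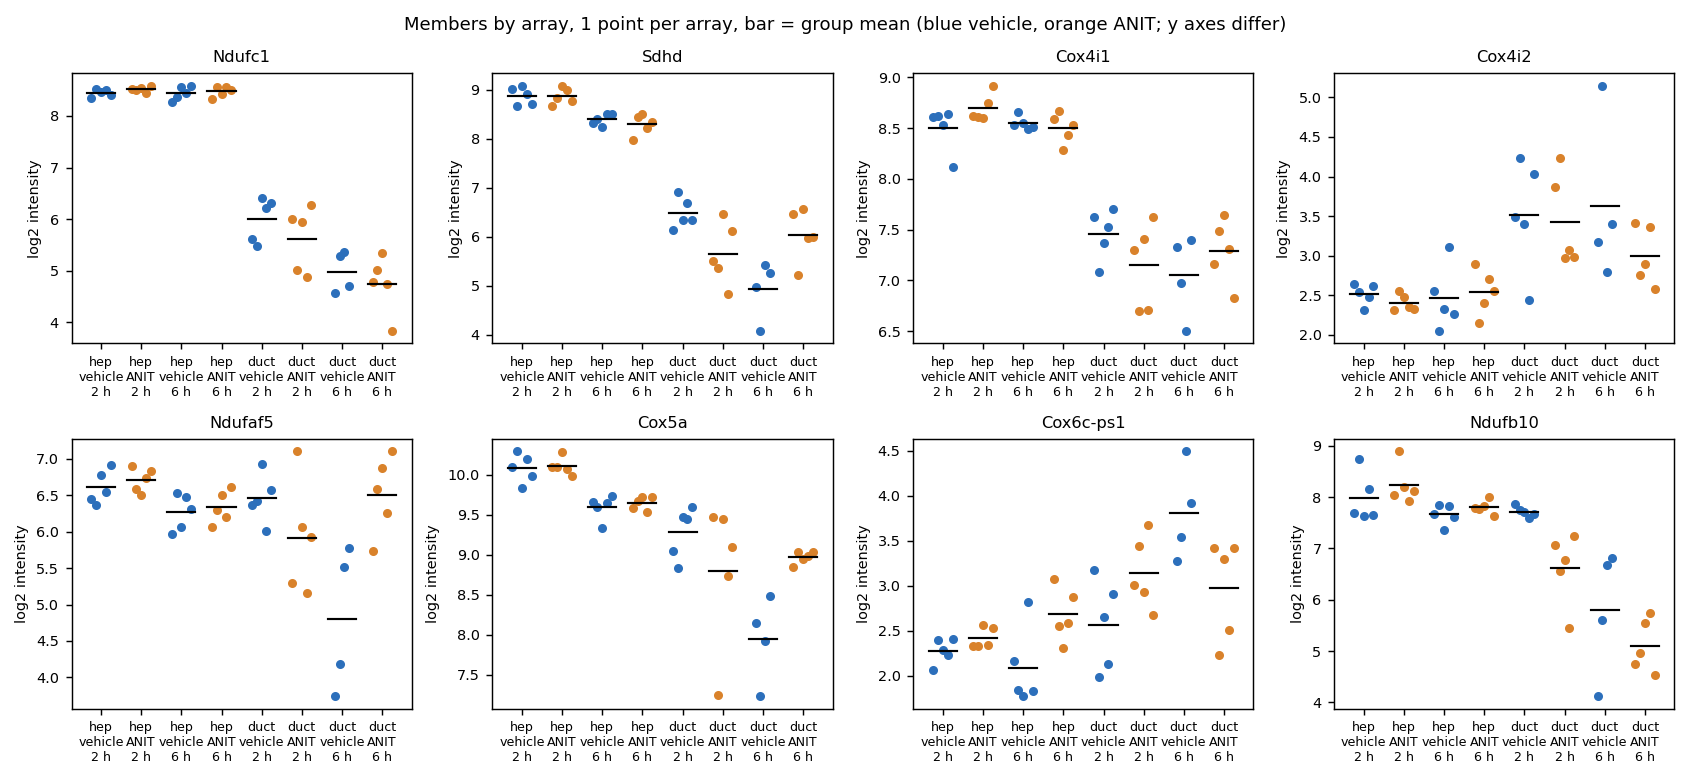
Log2 intensity of 8 genes on each of the 39 arrays, 1 point per array with the group mean as a bar, blue for vehicle and orange for ANIT ("hep" hepatocyte, "duct" bile duct; the y axes differ and do not start at 0). Ndufc1, Sdhd and Cox4i1 lie lower in bile duct than in hepatocytes, Cox4i2 and Cox6c-ps1 higher on most arrays, and Ndufaf5 and Cox5a are low in vehicle bile duct at 6 h.

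Other mitochondrial genes, taken from lists and without the 84 genes, gave the following counts. They are to be read against 23.5% lower and 28.7% higher over all probe sets. Among probe sets with a mean of at least 7, 42.1% were lower and 33% higher. Of 36 genes of electron carriers, coenzyme Q and complex assembly, 28 were lower and 1 higher in bile duct in vehicle rats at 2 h, led by Coq8a (-4.07). Of 16 genes of the citric acid cycle and pyruvate entry, 13 were lower and 2 higher, with Pc (pyruvate carboxylase) at -4.8, Pdhb (pyruvate dehydrogenase) at -2.77 and Suclg1 (succinyl-CoA ligase) at -1.88. Of 10 regulators of mitochondrial biogenesis 5 were lower and 1 higher, with Polg, the mitochondrial DNA polymerase, at -2.52. Of 18 chaperones, proteases and antioxidant enzymes of mitochondria, 17 were lower and 0 higher, and of 18 protein import genes 13 and 0. Mitochondrial carriers and porins were mixed, with 11 of 18 lower and 3 higher: Slc25a13, the aspartate and glutamate carrier, was at -4.25, whereas Ucp2 (2.96) and Slc25a4 (2.85) were higher. Glycolysis genes were mixed too, 8 of 23 lower and 10 higher, with Pklr, the liver pyruvate kinase, at -4.84 and Ldhb (4.41) and Pfkp (4.25) higher. The glycolysis median, -0.07, turned to 0.22 after renewed quantile normalization.

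ANIT left the respiratory chain genes without a called change in hepatocytes. At 2 h 0 of the 84 genes passed and at 6 h 0 passed, as did 0 and 0 percent of all probe sets (limma, adjusted p under 0.05). At an unadjusted p under 0.05 there were 4 genes at 2 h and 3 at 6 h, against 1195 and 1285 of the 15866 probe sets. The authors' deposited tables called 0 genes at either time. The differences ran from -0.21 to 0.41 at 2 h and from -0.32 to 0.63 at 6 h, with medians of 0.04 and -0.01. The genes with the smallest p at 2 h were Atp5f1d, Ndufa11 and Atp5f1c. Atp5f1d, a central stalk subunit of complex V, read 8.69, 8.96, 8.38, 9.15 and 8.17 with vehicle and 9.04, 9.25, 9.1, 8.91 and 9.08 with ANIT, overlapping (0.41, limma adjusted p 0.615). Ndufa11, an accessory subunit of complex I, read 7.98, 8.4, 8, 8.45 and 7.77 with vehicle and 8.23, 8.66, 8.4, 8.44 and 8.49 with ANIT, again overlapping (0.32, limma adjusted p 0.628). Atp5f1c, the gamma subunit, did not overlap, at 11.38, 11.24, 11.28, 11.24 and 11.37 with vehicle and 11.09, 11.14, 11.09, 11.19 and 11.16 with ANIT (-0.17, limma adjusted p 0.634).

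At 6 h the smallest p in hepatocytes belonged to Ndufaf4, an assembly factor of complex I. It read 4.05, 4.31, 4.1, 4.24 and 4.2 with vehicle and 4.39, 4.43, 5.1, 5.04 and 5.07 with ANIT, without overlap (0.63 ± 0.16, limma adjusted p 0.335). Cox6c-ps1 read 2.16, 1.84, 1.77, 2.82 and 1.83 with vehicle and 3.08, 2.55, 2.31, 2.59 and 2.87 with ANIT (0.6, limma adjusted p 0.477). The ranges of Cox6c-ps1 overlap. Cox6b2 read 4, 3.7, 3.88, 4.19 and 3.85 with vehicle and 3.85, 3.75, 3.49, 3.63 and 3.31 with ANIT (-0.32, limma adjusted p 0.587).

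In bile duct at 2 h most respiratory chain genes read lower with ANIT, and none passed the test. The median difference, ANIT minus vehicle, was -0.36, and 76 of the 84 genes (90.5%) were below 0, against 47.1% of all probe sets. Among probe sets with a mean of at least 7, 72.3% were below 0 and the median was -0.24. At an adjusted p under 0.05, 0 of the 84 genes passed against 1.12% of all probe sets (limma). At an unadjusted p under 0.05 there were 17 genes, against 2675 of the 15866 probe sets. The authors' deposited table called 0 genes and 1.58% of all probe sets. The mean of the 84 genes was 6.26 to 6.93 on ANIT arrays and 6.96 to 7.15 on vehicle arrays. The 2 lowest ANIT arrays were replicates 2 and 4, whose spread over probe sets was also low, and without them the median was -0.16 and the count 0. It was -0.22 after renewed quantile normalization and -0.11 when all 4 bile duct groups were fitted with the array spread as a covariate. The hepatocyte marker mean was 5.15 to 7.52 on ANIT and 4.53 to 6.76 on vehicle arrays, and with it as the covariate the median was -0.37 and the count 0.

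The smallest p at 2 h was that of Ndufb10, an accessory subunit of the membrane arm of complex I. It read 7.87, 7.74, 7.7, 7.59 and 7.66 with vehicle and 7.06, 6.56, 6.77, 5.45 and 7.24 with ANIT (-1.1 ± 0.3, limma adjusted p 0.0852). Each ANIT array lay below each vehicle array. Ndufv2, an iron-sulfur subunit of the NADH-binding end, read 7.1, 7.73, 7.8, 7.82 and 7.67 with vehicle and 7.2, 6.85, 7.08, 5.98 and 6.95 with ANIT (-0.81 ± 0.27, limma adjusted p 0.141). Ndufa8 read 6.16, 6.51, 5.98, 6.78 and 6.26 with vehicle and 5.49, 4.52, 5.56, 5.68 and 6.09 with ANIT (-0.87 ± 0.29, limma adjusted p 0.144). Both overlapped. Ndufb10, Ndufa11, Ndufb3, Ndufaf7, Ndufa4, Cox6c and Uqcrh were the 7 genes (8.33%) with each ANIT array below each vehicle array, as were 3.01% of all probe sets and 6.95% of those with a mean of at least 7. Of the 36 electron carrier and assembly genes, Sdhaf4, an assembly factor of complex II, fell at 2 h (-1.2 ± 0.24, 2.3-fold, limma adjusted p 0.0264). The 4 subunits of complex II itself read from -0.57 to -0.83 and did not pass.

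**Figure D3:**
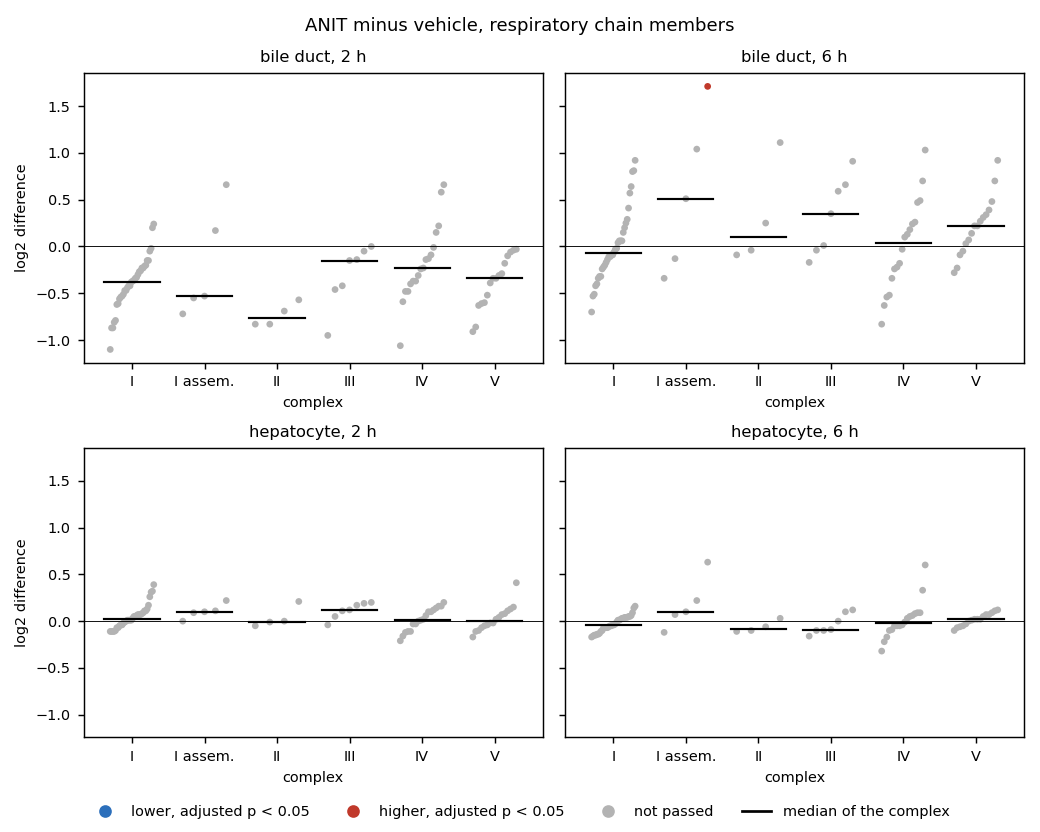
Log2 difference, ANIT minus vehicle, of each of the 84 genes (1 point per gene) by complex in bile duct and hepatocytes at 2 and 6 h, with the median of each complex as a bar. Hepatocyte points lie close to 0, bile duct points at 2 h mostly below 0, and the 1 called gene is Ndufaf5 in bile duct at 6 h.

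In bile duct at 6 h 1 gene passed, against 6.51% of all probe sets. Ndufaf5, a complex I assembly factor of the methyltransferase family, read 3.74, 4.19, 5.51 and 5.77 with vehicle and 5.73, 6.58, 6.87, 6.26 and 7.11 with ANIT. The ANIT arrays were higher, with the lowest of them just under the highest vehicle array. The rise was 1.71 ± 0.43, 3.27-fold (limma adjusted p 0.0298). Vehicle bile duct at 2 h read 6.37, 6.42, 6.93, 6.01 and 6.57, and against those arrays Ndufaf5 with ANIT at 6 h differed by 0.05 (limma adjusted p 0.929). The call was lost without 1 of 5 arrays: vehicle replicates 1 and 2 (1.35 and 1.5, adjusted p 0.0707 and 0.0826) and ANIT replicates 2, 3 and 5 (1.69, 1.62 and 1.56, adjusted p 0.0566, 0.0647 and 0.075, limma). The 4 vehicle arrays had a lower spread over probe sets (1.68 to 1.88, against 1.95 to 2.06 with ANIT) and hepatocyte marker means of 4.79 to 9.09 against 4 to 7.93. Their cholangiocyte marker means were 7.39 to 8.17 against 8.26 to 8.5, and their 3′ beta-actin control read 6.98 to 8.78 against 8.25 to 8.94. When all 4 bile duct groups were fitted with the spread as a covariate, the difference was 1.89 (limma adjusted p 0.0808), and without the 2 vehicle arrays of high hepatocyte marker level 1.53 (0.0973). The authors' deposited table gave Ndufaf5 a log2 ratio of 1.11 with an adjusted p of 0.132.

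Next by p at 6 h was Cox5a, a complex IV subunit on the matrix side. It read 8.15, 7.23, 7.92 and 8.48 with vehicle and 8.85, 9.03, 8.95, 8.98 and 9.04 with ANIT, without overlap, but did not pass (1.03 ± 0.3, limma adjusted p 0.0531). Sdhd, whose arrays are given above, differed by 1.11 ± 0.36 (limma adjusted p 0.0779), and its other probe set by 0.17 (0.833). Ndufaf4 differed by 1.04 (limma adjusted p 0.0882). Besides Cox5a, Atp5mg and Cox6a1 had each ANIT array above each vehicle array, and Cox6a2 had each below. These 3 and 1 genes compare with 8.33% and 2.92% of all probe sets.

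Over the 84 genes the median at 6 h was 0.05 (-0.05 over all probe sets, and -0.21 over the 84 genes after renewed quantile normalization), and 39 were below 0 and 45 above. Among probe sets with a mean of at least 7 the median was 0.35, and 11.7% were higher and 1.67% lower. The 56 respiratory chain genes that bright had a median of 0.14, and 0 of them passed. By the authors' deposited table, genes that passed numbered 2, against 3.9% of all probe sets. Both were lower: Atp5f1e (log2 -0.63, adjusted p 1.86e-07) and Atp5f1c (-0.54, 0.0163), the epsilon and gamma subunits of the central stalk. By the matrix 0 of the 16 complex V genes passed, and their differences ran from -0.28 to 0.92. Changes from that table and from the matrix correlated at 0.79 over all probe sets. Against the 2 h vehicle arrays 21 genes were lower and 1 higher with ANIT at 6 h, with a median of -0.42, while over all probe sets 8.23% were lower and 5.94% higher and the median was 0.06. Time and treatment cannot be told apart in that contrast.

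Some mitochondrial genes outside the 84 passed at 6 h in bile duct, where 5.17% of all probe sets were higher and 1.34% lower. For probe sets with a mean of at least 7 the shares were 11.7% and 1.67%. Ckmt1, mitochondrial creatine kinase, fell most (-2.51 ± 0.38, limma adjusted p 0.00302), and Slc25a5, an ADP/ATP carrier, rose (1.35 ± 0.34, 0.0281), the 2 of 18 carrier genes that passed. Bcs1l, which inserts the Rieske protein into complex III, rose (1.46 ± 0.3, limma adjusted p 0.0116), as did Cox18, which inserts a complex IV subunit (1.25 ± 0.3, 0.0232), while Foxred1, a complex I assembly factor (-1.15 ± 0.28, 0.0247), and Coq8a, for coenzyme Q (-1.95 ± 0.37, 0.00794), fell. These were the 4 of 36 genes of that list that passed. Of 18 import genes 3 rose: Timm10 (2.16), Tomm70 (1.96) and Timm8a1 (1.84), as did 3 of 18 chaperone genes, Hspa9 (1.97), Hspe1 (1.61) and Phb2 (1.54). Tfam, a factor for transcription of mitochondrial DNA, rose by 0.95 (limma adjusted p 0.0462). Of the 16 citric acid cycle genes 0 passed. Of 23 glycolysis genes Slc2a2, a glucose transporter, rose (1.41) and Aldoc (-1.63) and Ldhb (-1.11) fell. Several of these genes were low in the 6 h vehicle arrays: Hspa9 averaged 6.7 in vehicle bile duct at 2 h, 5.44 at 6 h and 7.41 with ANIT at 6 h, and Bcs1l 3.89, 2.83 and 4.29.

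The effect of ANIT was compared between bile duct and hepatocytes by a difference of differences. At 2 h 0 of the 84 genes passed, against 1.02% of all probe sets (limma). At an unadjusted p under 0.05 there were 19 genes, against 2406 of the 15866 probe sets. The genes with the smallest p were Ndufb10 (-1.36, limma adjusted p 0.0914), Ndufa11 (-0.94, 0.117) and Ndufa8 (-1, 0.118). At 6 h 4 genes passed, against 7.05% of all probe sets, and the median was 0.11 (-0.2 after renewed quantile normalization). Among probe sets with a mean of at least 7 the median was 0.34 and 12.8% were higher. The 56 respiratory chain genes that bright had a median of 0.15, and 3.57% were higher. The effect was higher in bile duct for Ndufaf5 (1.64 ± 0.46, limma adjusted p 0.0339), Cox5a (0.97 ± 0.28, 0.039) and Sdhd (1.2 ± 0.37, 0.0495), and lower for Cox6c-ps1 (-1.43 ± 0.41, 0.0352). Cox6c-ps1 read 3.27, 3.54, 4.5 and 3.92 in vehicle bile duct and 3.42, 2.23, 3.3, 2.51 and 3.42 with ANIT, near the floor of the arrays. Each of these 4 calls was lost under renewed quantile normalization and without single arrays (10, 12, 15 and 11 of 19 arrays for Ndufaf5, Cox5a, Sdhd and Cox6c-ps1). The second Sdhd probe set gave 0.15. The 6 h vehicle bile duct arrays are shared by this comparison, the ANIT comparison and the vehicle comparisons of time and region.

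**Figure D4:**
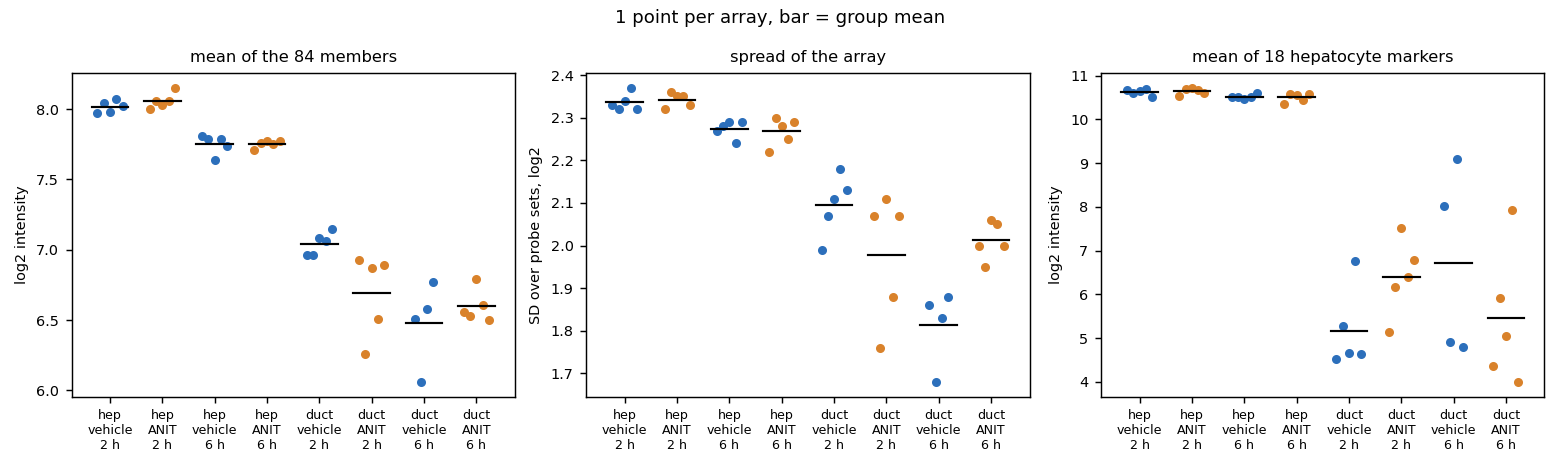
Mean log2 intensity of the 84 genes, SD of log2 intensity over all probe sets, and mean log2 intensity of 18 hepatocyte markers, 1 point per array with the group mean as a bar, blue for vehicle and orange for ANIT ("hep" hepatocyte, "duct" bile duct). In hepatocytes the gene mean drops from 2 to 6 h in both treatments. In bile duct the 4 vehicle arrays at 6 h have the lowest spread on average and the widest range of hepatocyte markers.

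Between 2 and 6 h, 33 of the 84 genes fell in vehicle hepatocytes and 40 in ANIT hepatocytes. The mean of the 84 genes was 7.97 to 8.07 in vehicle hepatocytes at 2 h and 7.64 to 7.81 at 6 h, and 8 to 8.15 and 7.71 to 7.77 with ANIT. With vehicle the 33 lower genes stood beside 2 higher ones, against 12.8% and 9.44% of all probe sets, with a median of -0.26 (limma). With ANIT 40 were lower and 0 higher, against 10.4% and 9.99% of all probe sets, with a median of -0.34. Among bright probe sets, with a mean of at least 7, 23.1% were lower with vehicle and 20.5% with ANIT, and among the 56 respiratory chain genes that bright 42.9% and 51.8%. The 2 comparisons rest on separate arrays, and 30 genes were lower in both, which is 90.9% of those lower with vehicle and 75% of those lower with ANIT. Over all probe sets 1025 were lower in both, 50.5% and 62.4%. Those 30 are 35.7% of the 84 genes, and the 1025 are 6.46% of all probe sets.

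Ndufb6, an accessory subunit of complex I, fell most with either treatment. It read 8.37, 8.27, 8.52, 8.6 and 8.55 with vehicle at 2 h and 7.71, 7.59, 7.49, 7.71 and 7.58 at 6 h. With ANIT it read 8.24, 8.2, 8.24, 8.62 and 8.68 at 2 h and 7.41, 7.51, 7.56, 7.3 and 7.65 at 6 h. The times did not overlap under either treatment, and the differences were -0.85 ± 0.11 and -0.91 ± 0.13 (limma adjusted p 0.000202 and 0.000507). In complex V Atp5f1a, the alpha subunit, led with vehicle (-0.78, and -0.59 with ANIT), and Atp5if1 fell in both (-0.78 and -0.56). With its dimmest probe set Atp5if1 passed in neither, at -0.48 with vehicle and 0.09 with ANIT (limma adjusted p 0.0539 and 0.717). In complex III Uqcrc2, a core subunit, fell by 0.69 and 0.75, and the assembly factor Ndufaf7 by 0.67 and 0.56. Atp5mpl led complex V with ANIT (-0.62). In complex II Sdhb fell by 0.48 and 0.54 and Sdhd by 0.48 and 0.57 (vehicle, then ANIT). Sdha fell too (-0.43 and -0.35), whereas Sdhc passed with ANIT (-0.51, limma adjusted p 0.0192) and not with vehicle (-0.18, 0.212).

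In complex IV Cox5a (-0.48 with vehicle and -0.46 with ANIT) and Cox6b1 (-0.41 and -0.48) fell in both, while Cox4i1, Cox6a1, Cox7b and Cox8a passed in neither. After renewed quantile normalization the falls of Cox5a with ANIT (-0.27, limma adjusted p 0.0735), of Cox6b1 with vehicle and with ANIT (-0.31, 0.0598, and -0.32, 0.0508) and of Sdha with ANIT (-0.2, 0.214) did not pass. Ndufa4 (0.44 ± 0.15, limma adjusted p 0.0446) and the complex I subunit Ndufa13 (0.71 ± 0.19, 0.016) rose with vehicle. Of the 16 citric acid cycle genes 6 were lower at 6 h with vehicle and 6 with ANIT (all probe sets 12.8% and 10.4%). Among them were Idh3g (-0.97 and -0.66), Idh3b (-0.77 and -0.78) and Dld (-0.81 and -0.83), parts of the NADH-producing dehydrogenases. In the list of electron carrier and assembly genes, Cyc1 (-0.63 and -0.61) and Bcs1l (-0.83 and -0.71) fell as well. The import receptor gene Tomm22 rose (0.82 and 0.77).

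Other array measures moved with time in hepatocytes. The SD over probe sets was 2.32 to 2.37 and 2.32 to 2.36 at 2 h (vehicle, ANIT) and 2.24 to 2.29 and 2.22 to 2.3 at 6 h. The 3′ minus 5′ difference of the Gapdh control probe sets, which is larger where RNA is less intact, was 2.94 to 4.93 and 2.76 to 3.98 at 2 h and 4.36 to 4.77 and 3.95 to 4.82 at 6 h. Of 11 macrophage markers, 6 were lower and 1 higher at 6 h with vehicle, and 1 was lower with ANIT, while 3 of 18 hepatocyte markers were lower with each. Over all probe sets 12.8% were lower and 9.44% higher with vehicle, and 10.4% were lower with ANIT. The part of these measures in the lower levels at 6 h was not tested. After renewed quantile normalization 27 genes were lower with vehicle and 30 with ANIT, against 9.82% and 8.58% of all probe sets. In 1 fit over all 39 arrays, whose error also holds the wider spread of bile duct arrays, 5 were lower with vehicle and 5 with ANIT. Over all probe sets that fit called 1.68% and 1.05% lower.

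**Figure D5:**
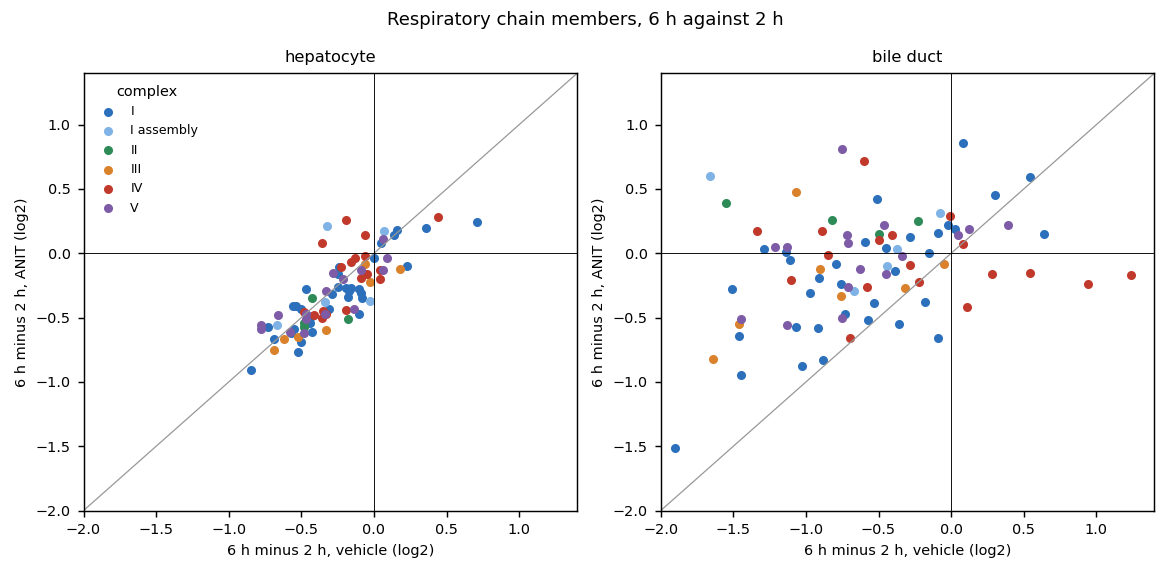
Log2 difference, 6 h minus 2 h, of each of the 84 genes in vehicle rats (x axis) and ANIT rats (y axis), for hepatocytes and bile duct, coloured by complex, with the line of equality in grey. Hepatocyte points lie along the line and mostly below 0 on both axes, and bile duct points are mostly below 0 with vehicle and scattered about 0 with ANIT.

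In bile duct the vehicle arrays also read lower at 6 h. The median over the 84 genes was -0.59, with 20 lower and 2 higher against 8.66% and 5.38% of all probe sets (limma). Among bright probe sets 18.1% were lower and the median was -0.47, and 23.2% of the bright respiratory chain genes were lower, with a median of -0.67. Ndufb10 fell most (-1.9 ± 0.45, limma adjusted p 0.0176), from the 2 h values given above to 4.12, 5.61, 6.68 and 6.82. Ndufaf5 (-1.66 ± 0.4, 0.0188), Sdhd (-1.55 ± 0.31, 0.0099), Atp5po, a peripheral stalk subunit of complex V (-1.45 ± 0.26, 0.00706), Uqcrc1, a core subunit of complex III (-1.46 ± 0.44, 0.0408), and Cox5a (-1.34 ± 0.3, 0.0145) fell as well. Cox6c-ps1 (1.24 ± 0.33) and Cox6a2 (0.94 ± 0.28) were the 2 that rose. The spread over probe sets was 1.99 to 2.18 at 2 h and 1.68 to 1.88 at 6 h. The cholangiocyte marker mean was 8.53 to 8.94 and 7.39 to 8.17, and the 3′ beta-actin control read 9.6 to 10.16 and 6.98 to 8.78. The 3′ minus 5′ difference of the Gapdh controls was 3.65 to 4.55 at 2 h and 3.99 to 5.19 at 6 h. The part of these measures was not tested. Leaving out the 2 vehicle arrays of high hepatocyte marker level left 12 genes, each lower, against 5.62% of all probe sets lower and 4.53% higher. Leaving out vehicle replicate 2, 3, 4 or 5 of 2 h left 12, 6, 6 and 7 genes. Renewed quantile normalization left 3 of the 84 genes, against 3.53% of all probe sets. Atp5po was the 1 gene named here that still passed after it.

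With ANIT, bile duct at 6 h differed from 2 h in 1 of the 84 genes, lower, against 0.649% lower and 0.756% higher over all probe sets. This was Ndufb10 (-1.51 ± 0.35, limma adjusted p 0.0422), at 4.74, 4.96, 5.55, 5.75 and 4.53 at 6 h, and the ranges of the times overlapped. Without any 1 of 7 of the 10 arrays (ANIT 2 h replicates 1, 2, 3 and 5 and ANIT 6 h replicates 1, 2 and 5) 0 genes passed. The median was -0.08, and 10 genes had an unadjusted p under 0.05. Ndufb10 read 7.59 to 7.87 on the vehicle bile duct arrays of 2 h, above each array of the other 3 bile duct groups.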

How the data were processed

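RNA was isolated from laser-captured tissue with Picopure and amplified with NuGEN Ovation V2 before hybridisation to Affymetrix rat arrays, per the labels' protocols. The deposited values are log2 probe set intensities made by the authors with RMA, per the submitters' processing notes. Its version is not given in the sources used here, nor is the set of arrays each run covered. The authors' deposited comparison tables hold log10 ratios of ANIT over vehicle, converted here to log2, and a p-value per probe set, adjusted here by Benjamini-Hochberg.

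Of 15923 probe sets, 57 controls were left out and 15866 tested. The platform's annotation gave 1 symbol to 12783, several to 312 and none to 2771. Arrays carry no counts, so their number limits the precision. The arrays of a comparison were fitted alone, with lmFit and eBayes of limma 3.58.1 under R 4.3.3 (two-sided, no covariate), with p-values adjusted over 15866 probe sets and a threshold of 0.05. Differences of the ANIT effect were contrasts over 4 groups. Errors are standard errors, and p-values measure the spread between these arrays. On simulated arrays with known differences added, the fits were checked only for returning those differences on average. The simulated spread of a probe set was the same in each group, unlike that of bile duct and hepatocyte arrays. The labels do not say which arrays came from the same rat, so numbers were not taken to pair arrays. Deviations of same-numbered bile duct and hepatocyte arrays correlated at -0.09 to 0.13, which cannot show if they shared a rat.

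The genes and the lists of other genes were chosen with earlier results of these data known. Genes were named mainly by a rule, though not in each comparison it covers: in each comparison and complex the largest rise and fall past the threshold; in ANIT comparisons the called genes or the 3 with the smallest p; complex II, isoform families, c-ring genes and Atp5if1 throughout; and for each other list up to 3 by p. Other genes, such as Ndufc2, Ndufs1 and Atp5f1b, were chosen after their values were seen. The 2 comparisons of time within ANIT arrays were added after the data were seen. Alternatives were renewed quantile normalization, median subtraction, removal of dim probe sets, trend and robust eBayes, 1 fit over all 39 arrays, a replicate block (statmod 1.5.0), other probe sets, the authors' p-values, covariates for array spread and hepatocyte markers, and each array left out.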

Additional observations from a re-analysis of the deposited data

Results flagged for a closer look

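For the genes named in comparisons of ANIT with vehicle and for the mean of the 84 genes, 120 sets of arrays of 1 group were searched for an array far from the others, and 8 held one; chance gives about 1 in 20. Ndufb10 had a high array in ANIT hepatocytes at 2 h, at 8.9 with the next at 8.2. Ndufv2 had a low array in 3 bile duct groups: 7.1 in vehicle at 2 h (next 7.67), 5.98 with ANIT at 2 h (next 6.85) and 6.56 in vehicle at 6 h (next 7.33). Ndufa8 was low on 1 array of ANIT hepatocytes at 6 h, at 6.91 (next 7.2). In ANIT bile duct at 2 h, Atp5f1d was low on 1 array at 6.71 (next 7.5), and Ndufa11 at 5.19 (next 6.28). Atp5f1c was low on 1 array of vehicle bile duct at 2 h, at 9.54 (next 9.79).

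At 6 h the effect of ANIT differed between bile duct and hepatocytes for 4 genes by the difference of differences (limma), against 7.05% of all probe sets. All 4 calls were lost after renewed quantile normalization, and each without 10 to 15 of 19 single arrays. It was 0.97 for Cox5a (adjusted p 0.039), -1.43 for Cox6c-ps1 (0.0352), 1.64 for Ndufaf5 (0.0339) and 1.2 for Sdhd (0.0495).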

How the results depend on the processing

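Of 123 counts of called genes under other settings, 96 stayed within 1.5 times the reported count and 27 did not. Between bile duct and hepatocytes, with each array left out, genes called in either direction numbered 68 to 75 in vehicle 2 h (65 to 71 of them lower), 70 to 74 in vehicle 6 h (67 to 70), 72 to 76 in ANIT 2 h (69 to 72) and 70 to 72 in ANIT 6 h (69 to 71). After renewed quantile normalization 45 were called in vehicle 6 h, 42 of them lower, against 34.2% of all probe sets called and 17.1% lower. For ANIT in bile duct at 6 h (1 gene reported), the count was 0 after renewed quantile normalization, with the array spread as a covariate, or without the 2 vehicle arrays of high hepatocyte marker level. It was 2 after median subtraction, with trend and robust eBayes, by the authors' p-values (both lower), or with hepatocyte markers as a covariate, 3 when all 4 bile duct groups were fitted together, 4 without dim probe sets, 14 in 1 fit of 39 arrays (28.8% of all probe sets), 22 with 2 h vehicle arrays as controls, and 0 to 3 with an array left out. For ANIT in bile duct at 2 h, 1 fit of 39 arrays called 16, and 10.3% of all probe sets. For the difference of the ANIT effect, leaving out arrays gave 0 to 3 genes at 2 h and 0 to 5 at 6 h. At 6 h the count was 0 after renewed quantile normalization (5.4% of all probe sets) and 7 without the 2 arrays (11.2%).

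For time, the vehicle bile duct count of 22 (14% of all probe sets) became 3 after renewed quantile normalization (3.53%) and 48 in 1 fit of 39 arrays (37.4%). It was 12 without the 2 arrays (10.1%) and 6 to 25 with an array left out. The ANIT bile duct count of 1 became 0 after median subtraction, 11 in 1 fit of 39 arrays (14.8% of all probe sets), and 0 to 1 with an array left out. The hepatocyte counts of 35 and 40 became 5 and 5 in 1 fit of 39 arrays (3.21% and 2.46% of all probe sets). The replicate block, with arrays of the same number as a block, gave 0 genes for ANIT in bile duct at 6 h (2.52% of all probe sets). It gave 1 for the difference at 6 h (3.49%, and 1 also by array number), 3 for time in vehicle bile duct (3.21%) and 0 in ANIT bile duct (0.529%). It moved no other count by over 1.5 times. The cause was not tested in these cases. Signs turned for 7 calls in 6 genes: Ndufa4 in vehicle 2 h (0.02), Cox7a2l in vehicle 6 h (0.09) and Atp5mk in ANIT 2 h (0.02) after renewed quantile normalization, and Atp5me in vehicle 6 h (0.3), Atp5if1 in 2 comparisons of time (0.72 in vehicle bile duct, 0.09 in ANIT hepatocytes) and Ndufv3 in vehicle hepatocytes over time (0.03) with their dimmest probe set.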
